A study of Mus musculus with 16 samples.

Results

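The Sall genes are the mammalian spalt-like family of zinc-finger transcription factors. They were examined in KPC1199 cells, a murine pancreatic ductal adenocarcinoma (PDAC) line from a genetically engineered mouse model with a pancreatic Cre. Members were taken by symbol (Sall1, Sall2, Sall3 and Sall4), and all 4 were present among the 55738 features of 1 count table and the 56980 features of the other. The family was proposed because its expression was already known to differ between the genotypes here, so the values of its members are given as a description, without a p-value. In the first experiment, cells without treatment carried either a control guide (sgCtrL, 2 libraries) or the guide Sin3Bsg1 against Sin3b (2 libraries). In the second, sgCtrL and Sin3Bsg1 cells were each kept without IFNγ or given IFNγ at 10 ng/ml for 24 h, with 3 libraries in each of the 4 groups. All cells had received a lentiviral CRISPR-Cas9 vector and puromycin selection, the Sin3Bsg1 groups rest on a single guide, the sgCtrL cells are labelled as wild type, and whether either line was a clone is not given in the sources used here. The comparisons ask what loss of Sin3B changes in these cells, alone and under IFNγ. The labels do not say that libraries came from separate cultures, so a p-value here measures the spread between libraries only.

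Spalt-like proteins bind DNA through pairs of C2H2 zinc fingers, and a short motif at their N terminus recruits the NuRD complex, a chromatin remodeler with histone deacetylases. Sall1 is required for outgrowth of the ureteric bud in the developing kidney and marks nephron progenitors. Sall3 is a close relative of Sall1 that is expressed in limb, neural and cranial tissue, Sall4 acts in the pluripotency network of embryonic stem cells, and Sall2 is the most divergent member and is linked to cell-cycle and apoptosis genes. Sin3B is a scaffold that brings histone deacetylases to promoters.

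The guide is shown because every genotype comparison rests on it, and its last 3 letters, in capitals, are the PAM read from the genome. Its 20 bases match GRCm39 once, at chr8:73449982-73450001 on the plus strand, in the coding part of exon 1 of the 19 exons of Sin3b. Within 5 kb of the Sall genes, the site next to an NGG PAM closest to the guide had 7 mismatches at Sall1, Sall2 and Sall3 and 8 at Sall4.
Sin3Bsg1: tggctcccgctggggtcgttCGG

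Sall1 and Sin3b both lie on chromosome 8, Sall1 at chr8:89753863-89770823 on the minus strand (GRCm39, GENCODE M39) and Sin3b at chr8:73449880-73484833 on the plus strand. Sall2 is at chr14:52548629-52566219 and Sall4 at chr2:168590252-168609863, both on the minus strand. RefSeq promoters, from 250 bases before to 50 after a start site, matched for 2 of the 4 members, with 3 starts for Sall1 and 2 for Sall2. The one nearest the start of the canonical transcript is shown for each, because the genotypes were apart in both experiments for Sall1 and in the untreated one alone for Sall2. CG dinucleotides are in capitals. The sequences come from the table of build GRCm38.p6 and were found in GRCm39 at chr8:89769441-89769740 (Sall1) and chr14:52553731-52554030 (Sall2), minus strand.
Sall1 promoter: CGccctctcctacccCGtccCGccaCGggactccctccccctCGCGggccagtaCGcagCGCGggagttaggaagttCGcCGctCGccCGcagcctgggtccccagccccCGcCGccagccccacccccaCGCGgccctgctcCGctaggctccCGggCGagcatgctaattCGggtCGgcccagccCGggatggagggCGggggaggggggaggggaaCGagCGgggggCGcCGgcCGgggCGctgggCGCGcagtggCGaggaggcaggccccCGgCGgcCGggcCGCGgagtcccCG
Sall2 promoter: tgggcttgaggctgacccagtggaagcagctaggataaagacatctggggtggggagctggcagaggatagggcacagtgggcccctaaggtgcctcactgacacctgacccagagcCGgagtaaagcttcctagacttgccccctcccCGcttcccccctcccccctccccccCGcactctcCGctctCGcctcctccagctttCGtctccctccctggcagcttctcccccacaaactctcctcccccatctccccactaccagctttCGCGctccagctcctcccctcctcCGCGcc

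The Sall1 window held 39 CG dinucleotides, more than 95.6% of 32851 promoters of the same length, whereas the Sall2 window held 10, at the 56.5th percentile, beside a median of 7. Motifs were searched on both strands. TTTCGCGC, an E2F-type site, was found once in the Sall2 window and is present in 0.323% of all promoters. TTTGAA, the cell-cycle homology region, was found in neither window and is present in 17.9% of promoters. A match is a description of letters, and no match says only that the letters are not in these windows.

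The libraries of untreated cells held 29683181 to 32311721 counts, those of the IFNγ experiment 18128055 to 27056903. Levels are given as CPM, counts scaled to library size with edgeR's TMM factors, and as TPM, which also divides by gene length, where genes are compared with each other. Sin3b, the targeted gene, was lower in every Sin3Bsg1 library than in any sgCtrL library of the same experiment and treatment. It was 86.0 ± 3.66 CPM in sgCtrL and 35.3 ± 1.71 CPM in Sin3Bsg1 cells of the untreated experiment (SD, n = 2), a log2 fold change of −1.28 ± 0.05 (SE, edgeR adjusted p = 1.24e-11). The log2 fold change was −1.24 ± 0.05 without IFNγ (edgeR adjusted p = 5.10e-10) and −1.22 ± 0.05 with IFNγ (edgeR adjusted p = 5.21e-10). All 6 ductal epithelial markers (Krt8, Krt18, Krt19, Epcam, Cdh1, Sox9) were above 1 TPM in every group. In the untreated experiment their sum was 5481 to 5497 TPM in sgCtrL and 7205 to 7308 TPM in Sin3Bsg1. Without IFNγ it was 3873 to 3951 and 4179 to 4281 TPM, and with IFNγ 3887 to 4615 and 5138 to 5333 TPM. In these 3 comparisons 6, 3 and 5 of the markers were called higher in Sin3Bsg1 and 0 lower. Of all genes 31.2, 17.2 and 16.5% were called.

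Sall1 was the member with the most even response, at 12.4 to 14.4% of its control level in Sin3Bsg1 cells. In the untreated experiment Sall1 was at 2.76 and 3.40 CPM in the sgCtrL libraries and at 0.311 and 0.453 CPM in the Sin3Bsg1 libraries, from 82 and 100 counts against 10 and 14. Without IFNγ it was at 14.0, 14.4 and 12.6 CPM in sgCtrL and at 1.71, 1.78 and 1.59 CPM in Sin3Bsg1. With IFNγ it was at 15.4, 15.03 and 15.8 CPM in sgCtrL and at 2.26, 1.82 and 2.58 CPM in Sin3Bsg1. Every Sin3Bsg1 library was thus lower than every sgCtrL library in all 3 comparisons. The log2 fold change was −3.00 ± 0.34 (SE) in the untreated experiment, −3.01 ± 0.13 without IFNγ and −2.80 ± 0.12 with IFNγ. Ordered from the lowest log2 fold change, Sall1 was number 6 of 14589 genes tested in the untreated experiment, number 13 of 14913 without IFNγ and number 22 with IFNγ.

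Sall3, the close relative of Sall1, was lower by a similar amount in the IFNγ experiment and less evenly in the untreated one. It lies on the minus strand of chromosome 18, at chr18:81009591-81030631 (GRCm39). Without IFNγ it was at 9.81, 8.89 and 8.40 CPM in sgCtrL and at 0.723, 1.001 and 1.20 CPM in Sin3Bsg1. With IFNγ it was at 7.91, 6.61 and 6.35 CPM in sgCtrL and at 0.752, 0.606 and 0.687 CPM in Sin3Bsg1. The groups were far apart in both comparisons, with log2 fold changes of −3.21 ± 0.19 and −3.34 ± 0.20, or 10.8% and 9.80% of the control mean. Untreated, Sall3 was at 1.71 and 0.817 CPM in sgCtrL and at 0.311 and 0.615 CPM in Sin3Bsg1, from 51 and 24 counts against 10 and 19. These groups did not overlap, but the sgCtrL libraries differed from each other by more than the nearest libraries of the 2 groups did. The log2 fold change was −1.45 ± 0.47, and it was −0.82 without sgCtrL replicate 1 and −1.03 without Sin3Bsg1 replicate 1, neither of which passed the adjusted p of 0.05 that the full set passed. DESeq2 gave the same log2 fold change, −1.45, and it did not pass there either.

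**Figure D1:**
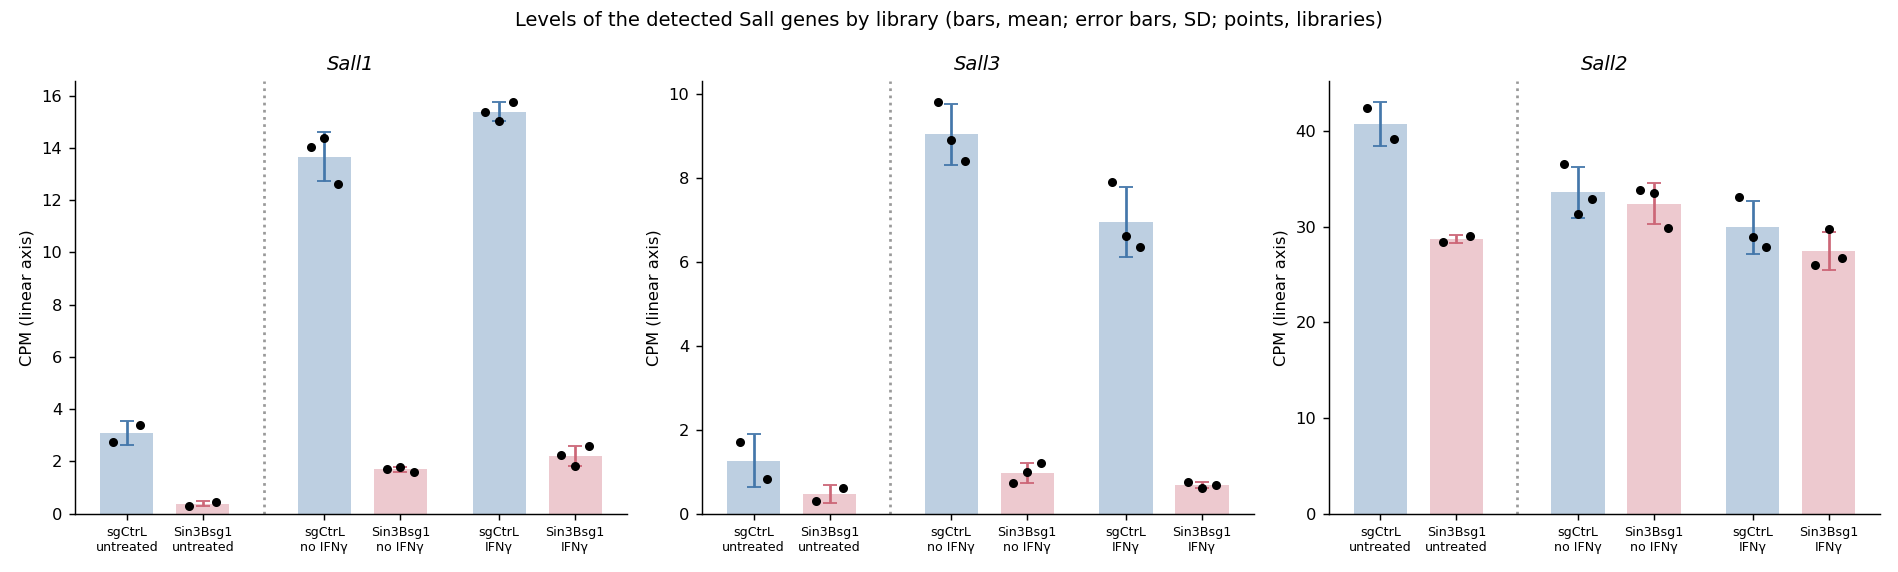
Level of Sall1, Sall3 and Sall2 in CPM on linear axes by group, with the 2 experiments parted by a dotted line. Bars are group means, error bars the SD and points the libraries, blue for sgCtrL and red for Sin3Bsg1. Sall1 in the IFNγ experiment runs from 12.6 to 15.8 CPM in sgCtrL libraries and from 1.59 to 2.58 CPM in Sin3Bsg1 libraries, while the Sall2 groups overlap there.

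Sall2, the divergent member, was the most abundant and the least changed. Untreated cells had 42.4 and 39.1 CPM of Sall2 in sgCtrL and at 28.4 and 29.0 CPM in Sin3Bsg1, a log2 fold change of −0.51 ± 0.06 that left 70.4% of the control mean. Without IFNγ it was at 36.5, 31.3 and 32.8 CPM in sgCtrL and at 33.8, 33.5 and 29.9 CPM in Sin3Bsg1. With IFNγ it was at 33.1, 28.9 and 27.8 CPM in sgCtrL and at 26.0, 29.8 and 26.7 CPM in Sin3Bsg1. The genotypes were apart in the untreated experiment and overlapped in both treatments of the other. Their log2 fold changes there were −0.05 ± 0.08 and −0.12 ± 0.08, and the first turned to 0.02 without sgCtrL replicate 1 and to 0.01 without Sin3Bsg1 replicate 3 of the cells without IFNγ.

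Sall4, the member of the pluripotency network, had 0 counts in each of the 16 libraries. A count of 0 allows up to 3 counts, which is 0.0935 to 0.165 CPM or 0.0377 to 0.0705 TPM in these libraries, for counting error only. Sall4 was therefore not detectable at this depth in either genotype, and no fold change was computed for it.

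The 3 detected members passed the low-count filter in both tables, so the counts of members that follow are out of 4, with Sall4 in no test. In the untreated experiment 3 of the 4 members were lower at an adjusted p under 0.05, and 16.0% of all genes tested were. Groups that did not overlap, with Sin3Bsg1 lower, were also found for 3 of the 4 members and for 31.4% of all genes. Without IFNγ 2 of the 4 members were lower, with 9.32% of all genes called lower and 20.9% lower without overlap. With IFNγ 2 of the 4 were lower, with 7.89% of all genes called lower and 14.9% lower without overlap. The members were chosen on these comparisons, so nothing is read from their counts. A log2 fold change of −2 or less, which Sall1 had in all 3 comparisons and Sall3 in the 2 of the IFNγ experiment, was found for 0.267% of genes tested in the untreated experiment, 0.355% without IFNγ and 0.362% with IFNγ.

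**Figure D2:**
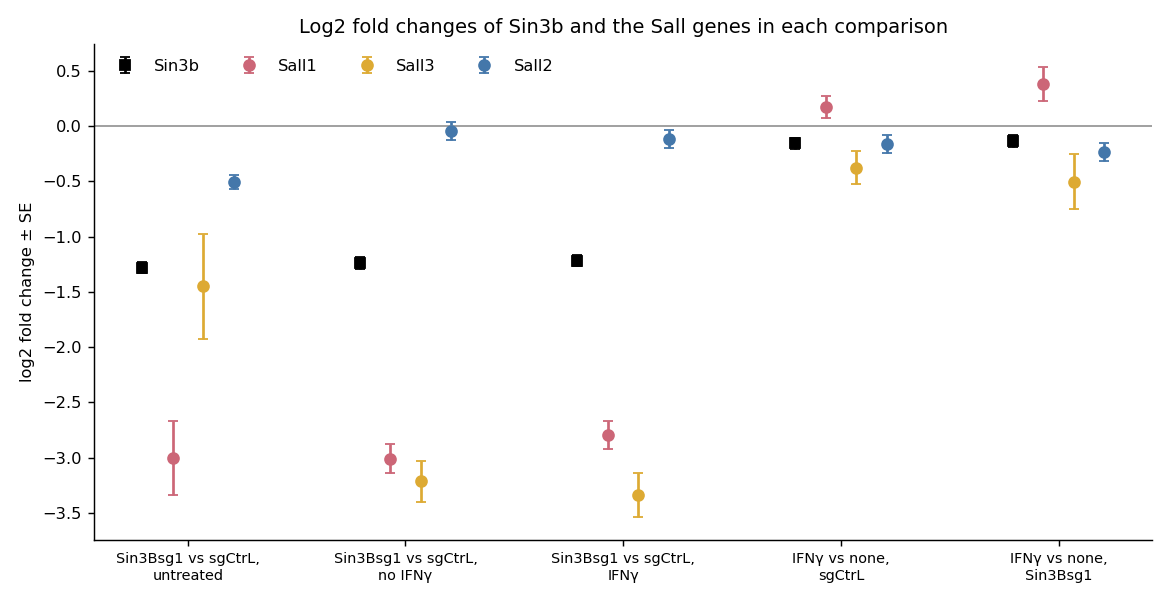
Log2 fold change of Sin3b (black squares), Sall1 (red), Sall3 (yellow) and Sall2 (blue) in the 3 genotype comparisons and the 2 IFNγ comparisons, with SE as error bars. Sall1 lies between −3.01 and −2.80 in all 3 genotype comparisons, Sall3 moves from −1.45 in the untreated experiment to −3.21 and −3.34, and all Sall values in the IFNγ comparisons are between −0.51 and 0.38.

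The log2 fold changes of the members with IFNγ ran from −0.51 to 0.38, with Sall1 higher and Sall3 lower in both genotypes. In sgCtrL cells Sall1 was higher with IFNγ, with a log2 fold change of 0.17 ± 0.10, and Sall3 was lower, at −0.38 ± 0.15. Neither overlapped between treated and untreated libraries, which was true of 41.5% of all genes, and neither passed an adjusted p of 0.05, as 30.2% of all genes did, although Sall3 did at −0.49 without replicate 1 of sgCtrL with IFNγ. In Sin3Bsg1 cells Sall1 was again higher (0.38 ± 0.16) and Sall3 lower (−0.51 ± 0.25), and the Sall3 libraries overlapped. The treated and untreated Sin3Bsg1 libraries did not overlap for Sall1 and Sall2, and 45.4% of all genes had no overlap there. The change of Sall1 passed the threshold at 0.48 only when Sin3Bsg1 replicate 2 with IFNγ was left out. Sall2 had log2 fold changes of −0.17 ± 0.08 in sgCtrL and −0.24 ± 0.08 in Sin3Bsg1. Of the members only Sall2 in Sin3Bsg1 passed, in a comparison where 28.4% of genes were called and 12.3% were called lower. That call was lost, with values from −0.24 to −0.21, when any one of 5 libraries was left out: replicates 1 and 2 of Sin3Bsg1 without IFNγ, replicates 1 and 3 of Sin3Bsg1 with IFNγ, and replicate 3 of sgCtrL without IFNγ. In sgCtrL it was called at −0.25 without replicate 1 with IFNγ. The 2 IFNγ comparisons use different libraries, but each shares its libraries with both genotype comparisons of that experiment.

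The difference between the genotype effect with and without IFNγ was within 2 standard errors for each member. It was 0.21 ± 0.19 for Sall1, −0.07 ± 0.12 for Sall2 and −0.13 ± 0.29 for Sall3 on the log2 scale. From the highest to the lowest mean, Sall1 ran from sgCtrL with IFNγ (15.4 ± 0.37 CPM, SD, n = 3) to sgCtrL without (13.7 ± 0.92), Sin3Bsg1 with (2.22 ± 0.38) and Sin3Bsg1 without (1.70 ± 0.10), and no neighbours in this order overlapped. Sall3 ran from sgCtrL without IFNγ (9.03 ± 0.72 CPM) to sgCtrL with (6.96 ± 0.83), Sin3Bsg1 without (0.976 ± 0.24) and Sin3Bsg1 with (0.682 ± 0.07), and these last groups overlapped. For Sall2 every pair of neighbours overlapped, from 33.6 ± 2.66 CPM in sgCtrL without IFNγ to 27.5 ± 1.99 CPM in Sin3Bsg1 with IFNγ.

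Per length of transcript, Sall2 led in every group. In sgCtrL cells without IFNγ it was at 14.3 ± 1.26 TPM, with Sall1 at 5.68 ± 0.36 TPM and Sall3 at 4.70 ± 0.40 TPM. The lowest Sall1 library, at 5.26 TPM, was still above the highest Sall3 library, at 5.15 TPM. In Sin3Bsg1 cells of the untreated experiment, the mean of Sall3 (0.226 ± 0.11 TPM) was above that of Sall1 (0.149 ± 0.04 TPM) and their libraries overlapped. In the other 5 groups the order was Sall2, Sall1, Sall3.

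The summed level of the family was lower in Sin3Bsg1 cells and shifted towards Sall2. It was 24.7 ± 1.76 TPM in sgCtrL and 15.2 ± 0.80 TPM in Sin3Bsg1 without IFNγ, and 21.6 ± 1.60 and 12.3 ± 0.56 TPM with IFNγ. Untreated cells had a sum of 18.1 ± 1.08 TPM in sgCtrL and 11.8 ± 0.37 TPM in Sin3Bsg1. The share of the sum that was Sall2 was 57.9% in sgCtrL and 91.9% in Sin3Bsg1 without IFNγ, and 55.9% and 90.1% with IFNγ. Sall2 of the untreated experiment already made up 89.9% of the sum in sgCtrL and was 96.8% in Sin3Bsg1.

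**Figure D3:**
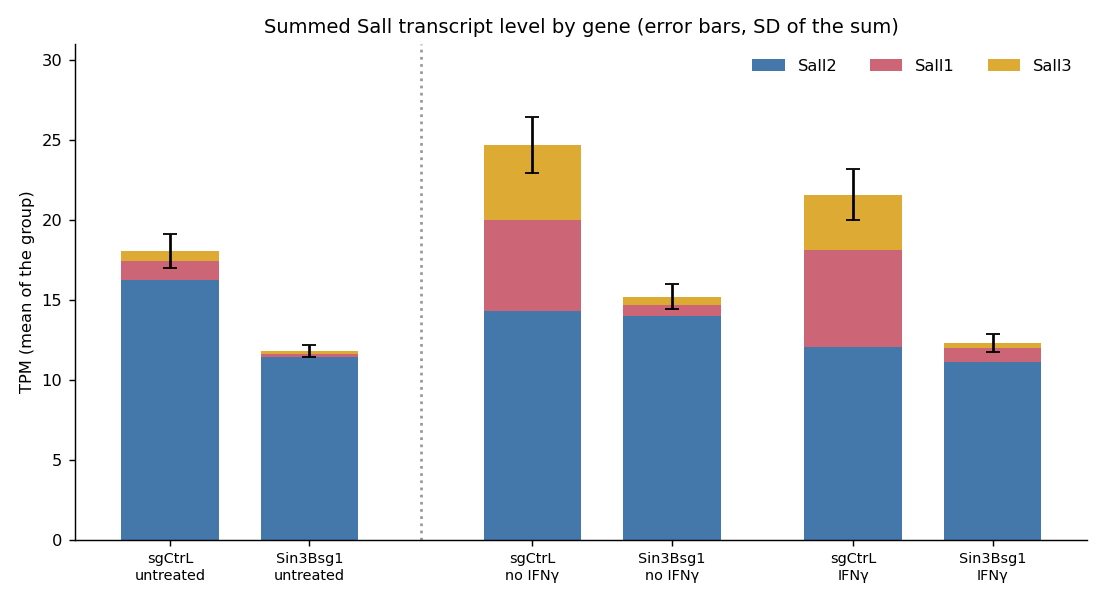
Mean TPM of Sall2, Sall1 and Sall3 stacked by group, with the SD of the summed level as error bars, and the experiments parted by a dotted line. The Sall1 and Sall3 segments are widest in the sgCtrL groups of the IFNγ experiment and narrow in each Sin3Bsg1 group, where Sall2 makes up 90.1 to 96.8% of the sum.

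Control cells of the 2 experiments differed in Sall1 and Sall3. Sall1 was at 3.08 CPM in untreated sgCtrL cells of the first experiment and at 13.7 CPM in sgCtrL cells without IFNγ of the second, 4.44-fold more. Sall3 went from 1.27 to 9.03 CPM, 7.14-fold more, and Sall2 from 40.8 to 33.6 CPM. In Sin3Bsg1 cells Sall1 was at 0.382 and 1.70 CPM, 4.44-fold apart, and Sall3 at 0.463 and 0.976 CPM. The tables were scaled apart and no test joins them. Of the 13848 genes tested in both, 1.80% had a difference at least as large as Sall1 in sgCtrL cells and 0.997% as large as Sall3, against 49.5% for Sall2. In Sin3Bsg1 cells these shares were 5.05% for Sall1, 21.4% for Sall3 and 67.9% for Sall2. The shares use differences of mean log2(CPM + 0.5), and the 0.5 shrinks differences at low levels. For Sall1 the difference was 1.99 in sgCtrL and 1.32 in Sin3Bsg1, at the same 4.44-fold. The shares of the 2 guides are therefore not compared. The summed TPM of 6 fibroblast markers also differed between these sgCtrL cells, at 37.3 to 37.4 and 89.8 to 93.9 TPM. Pdgfra (86.1 and 233 CPM) and Pdgfrb (13.4 and 30.6 CPM) were higher in the second experiment, and Col1a1 was lower (17.4 and 11.7 CPM). Dcn, Lum and Col1a2 had at most 18 counts in a library of these cells. The part of these markers in the difference was not tested. Experiment, culture and sequencing cannot be told apart here.

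Genes with the pattern most like each member were taken from 12743 genes with a mean of at least 1 CPM over the 12 libraries of the IFNγ experiment, by the root mean square difference of centred log2(CPM + 0.5). For Sall1 these were Gli3 (0.253), a zinc-finger effector of Hedgehog signaling, Sall3 (0.324), the potassium channel gene Kcnj2 (0.328), Hhip (0.355), which encodes a Hedgehog-binding antagonist, and the G-protein subunit gene Gng2 (0.376). For Sall3 they were Hhip (0.233), Gli3 (0.314), Sall1 (0.324), Kcnj2 (0.359) and the proprotein convertase gene Pcsk5 (0.372). Genotype log2 fold changes without and with IFNγ were −2.71 and −2.70 for Gli3 and −3.05 and −3.12 for Hhip. They were −2.80 and −4.12 for Kcnj2, −4.67 and −3.78 for Gng2, and −2.11 and −2.77 for Pcsk5. Because the added 0.5 shrinks differences at low levels, a near pattern here is not an equal fold change. Sall1 and Sall3 were each among the 5 genes nearest to the other. Both were chosen with the genotype difference of the family in these data known, so nothing is read from this. Sall2 spanned little, and its nearest genes Wasf1 (0.052), Slc27a4 (0.058), Ecm1 (0.061), Sfxn3 (0.064) and Etv4 (0.067) had genotype log2 fold changes between −0.18 and −0.02 there.

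**Figure D4:**
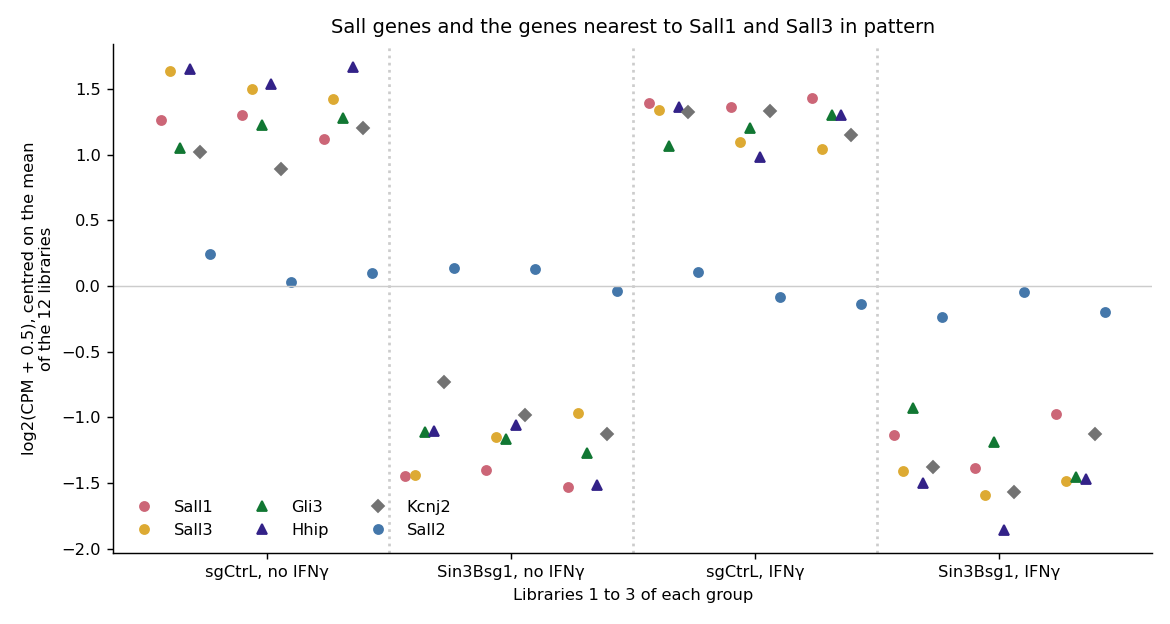
Log2(CPM + 0.5) of Sall1, Sall3, Sall2, Gli3, Hhip and Kcnj2 in the 12 libraries of the IFNγ experiment, each centred on its mean over the libraries and set side by side within a library. All but Sall2 are above 0 in each sgCtrL library and below 0 in each Sin3Bsg1 library.

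Gli3 was at 9.84 ± 0.85 CPM in sgCtrL and 1.50 ± 0.11 CPM in Sin3Bsg1 cells without IFNγ (SD, n = 3), and Hhip at 21.7 ± 1.10 and 2.61 ± 0.51 CPM. Gng2 was at 1.89 ± 0.49 CPM in sgCtrL and had 1 to 3 counts in each Sin3Bsg1 library there. The untreated experiment was not used to find these genes and so gives a separate measurement. Kcnj2 fell there from 3.13 ± 0.05 to 0.955 ± 0.21 CPM (SD, n = 2; log2 fold change −1.71 ± 0.27, edgeR adjusted p = 1.28e-04) and Pcsk5 from 8.32 ± 0.12 to 4.12 ± 0.32 CPM (−1.01 ± 0.14, edgeR adjusted p = 3.51e-05). Gli3 also fell, from 3.69 ± 0.80 to 1.92 ± 0.03 CPM (−0.94 ± 0.23, edgeR adjusted p = 0.00467). Hhip did not pass the test, at 1.25 ± 0.15 and 1.003 ± 0.19 CPM (−0.32 ± 0.34, edgeR adjusted p = 0.531), and Gng2 was below the filter. Like Sall1 and Sall3, Gli3 and Hhip were higher in sgCtrL cells of the IFNγ experiment than in those of the untreated one. Kcnj2 overlapped between untreated sgCtrL cells and those without IFNγ (3.13 ± 0.05 and 3.30 ± 0.41 CPM, SD, n = 2 and 3), Pcsk5 was lower without IFNγ (8.32 ± 0.12 and 7.44 ± 0.42 CPM), and Gng2 had 1 to 3 counts in untreated sgCtrL libraries. Among the genes nearest to Sall2, Slc27a4 was higher with the guide in the untreated experiment (0.25 ± 0.05, edgeR adjusted p = 5.14e-04), opposite to Sall2, and the other 4 did not pass.

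The genes beside Sall1 and Sall3 did not show changes of that size. Cyld, the nearest protein-coding gene on one side of Sall1 at 275 kb, had log2 fold changes of 0.00 ± 0.05 in the untreated experiment (edgeR adjusted p = 0.970), −0.13 ± 0.05 without IFNγ (edgeR adjusted p = 0.109) and −0.16 ± 0.05 with IFNγ (edgeR adjusted p = 0.0377). Atp9b, 32.3 kb from Sall3, had −0.02 ± 0.04, −0.01 ± 0.05 and 0.02 ± 0.05, with edgeR adjusted p from 0.793 to 0.952. Tox3 and Galr1, on the other sides at 1201 and 1380 kb, had at most 1 count in a library in these comparisons. Mettl3, 6.02 kb from Sall2, was higher in Sin3Bsg1 cells without IFNγ (0.25 ± 0.07, edgeR adjusted p = 0.0228), while Or10g3b on the other side had 0 counts. Beside the undetected Sall4, Atp9a at 5.92 kb rose from 0.846 ± 0.10 to 3.47 ± 0.46 CPM in the untreated experiment (2.03 ± 0.27, edgeR adjusted p = 2.00e-05) and was not called in the other, at 0.26 ± 0.25 (edgeR adjusted p = 0.561) and 0.51 ± 0.27 (edgeR adjusted p = 0.229). Zfp64, 117 kb away, was between −0.15 and 0.04 in the 3 comparisons and did not pass. Of the long noncoding RNA genes that overlap a member or lie within 1 kb of it, Gm3134 (antisense to Sall1), Gm14261 (antisense to Sall4) and Gm27239 (32 bases from Sall3) had 0 counts wherever they were listed. Gm53857 and Gm58460, which overlap Sall2 and Sall3, had no entry among the features of either count table, so they have no counts here. The strand setting of the counting is not given in the sources used here, so reads of a member and of an overlapping gene cannot be told apart.

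**Figure D5:**
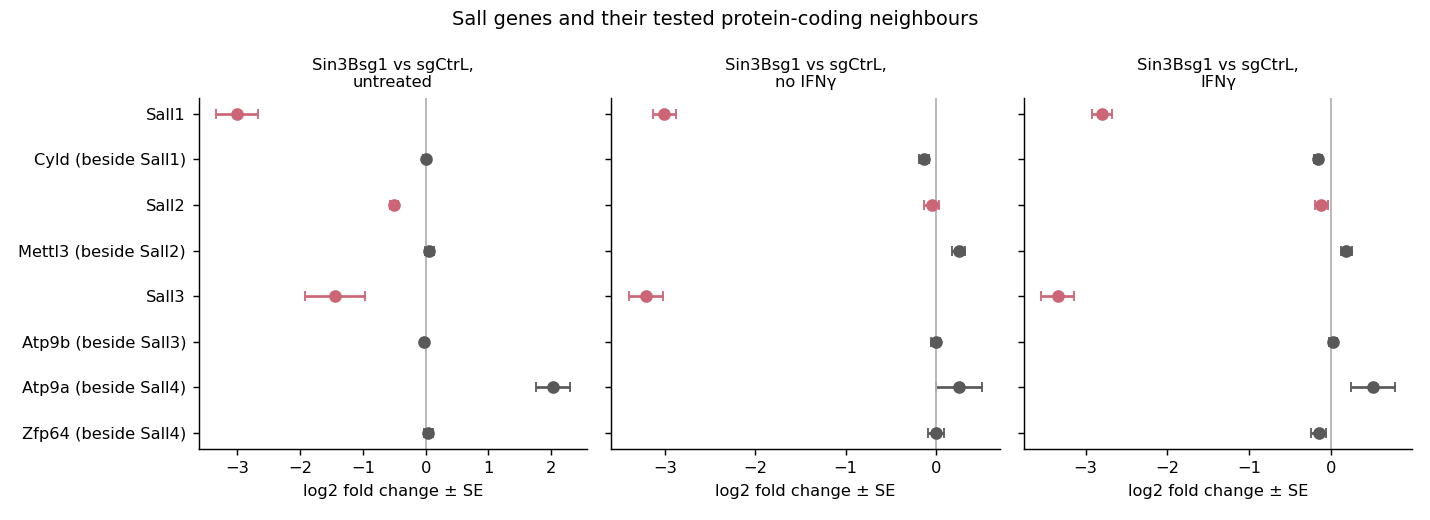
Log2 fold change with SE of Sall1, Sall2 and Sall3 (red) and of the tested protein-coding genes next to each member (grey) in the 3 genotype comparisons. Sall1 and Sall3 lie to the left of their neighbours Cyld and Atp9b in each panel, and Atp9a, next to Sall4, is at 2.03 in the untreated experiment alone.

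The lists that follow were written from general knowledge of Sall biology, with earlier results of these data known. The NuRD complex, the main partner of Sall proteins, was expressed in both experiments, with all 15 of its listed genes tested. In the untreated experiment 10 of the 15 were lower and 0 higher (31.2% of all genes were called, 16.0% lower), with a median log2 fold change of −0.12 beside 0.00 for all genes. DESeq2 called 7 of the 15. Its size factors in edgeR, at least 10 counts in every library and the replicate block each gave 11. The changes were small: Mta3 −0.30 ± 0.04 (edgeR adjusted p = 5.68e-05), the subunit gene Cdk2ap1 −0.22 ± 0.03 (edgeR adjusted p = 1.35e-04), Mbd3 −0.18 ± 0.03 (edgeR adjusted p = 2.29e-04) and the remodeler gene Chd3 −0.14 ± 0.02 (edgeR adjusted p = 3.76e-05). Without IFNγ 2 of the 15 were called (17.2% of all genes), Hdac2 lower at −0.22 ± 0.05 (edgeR adjusted p = 0.0111) and Mbd2 higher at 0.18 ± 0.06 (edgeR adjusted p = 0.0497). This count was 1 without replicate 1, 2 or 3 of sgCtrL or replicate 1 of Sin3Bsg1, and 0 without replicate 2 of Sin3Bsg1. It was 3 without replicate 3 of these Sin3Bsg1 libraries, 3 without replicate 1 of the IFNγ-treated sgCtrL libraries, and 5 when only the libraries of the comparison were fitted. With IFNγ Hdac2 alone was called (16.5% of all genes), at −0.23 ± 0.05 (edgeR adjusted p = 0.00767), and 2 were called without replicate 1 or 3 of sgCtrL or replicate 2 of Sin3Bsg1, with DESeq2 or without a filter. Hdac2, a deacetylase that the NuRD and Sin3 complexes share, also fell in the untreated experiment (−0.14 ± 0.04, edgeR adjusted p = 0.0117).

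Among 12 nephron progenitor genes, the setting in which Sall1 is best known, 3 were called in each genotype comparison (31.2, 17.2 and 16.5% of all genes were called) and all were lower, Eya1, Kif26b and Osr1. The list had 3 members above the low-count filter in the untreated experiment and 6 in the other. Eya1, a transcriptional cofactor of kidney progenitors, fell from 18.4 to 10.7 CPM in the untreated experiment (−0.78 ± 0.10, edgeR adjusted p = 2.18e-05), from 40.1 to 18.3 CPM without IFNγ (−1.13 ± 0.08, edgeR adjusted p = 6.38e-08) and from 53.8 to 26.0 CPM with IFNγ (−1.05 ± 0.07, edgeR adjusted p = 9.47e-08). Kif26b, a kinesin-family gene of kidney development, had −0.89 ± 0.20 (edgeR adjusted p = 0.00225), −0.91 ± 0.13 (edgeR adjusted p = 1.23e-04) and −0.72 ± 0.14 (edgeR adjusted p = 0.00227). Osr1, a transcription factor of the early kidney, changed least, at −0.33 ± 0.07 (edgeR adjusted p = 0.00120), −0.48 ± 0.06 (edgeR adjusted p = 1.33e-05) and −0.39 ± 0.06 (edgeR adjusted p = 1.40e-04). The median log2 fold change of the tested list genes was −0.78, −1.02 and −0.55, beside 0.00, −0.01 and 0.00 for all genes.

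Of 7 genes reported as targets or a partner of Sall2, 3 were higher and 0 lower in the untreated experiment, and 2 were higher and 0 lower in each comparison of the other, with 6 of the 7 tested and medians of 0.13, 0.14 and 0.12. Of all genes 31.2, 17.2 and 16.5% were called in these comparisons. The proapoptotic gene Pmaip1 rose from 2.87 to 7.02 CPM (1.29 ± 0.17, edgeR adjusted p = 2.76e-05), from 2.62 to 5.79 CPM without IFNγ (1.14 ± 0.20, edgeR adjusted p = 6.40e-04) and from 4.23 to 8.07 CPM with IFNγ (0.93 ± 0.18, edgeR adjusted p = 0.00176). Ccnd1, which encodes cyclin D, rose by less, with 0.22 ± 0.02, 0.43 ± 0.04 and 0.38 ± 0.04 (edgeR adjusted p = 4.86e-07, 3.21e-06 and 1.30e-05). Myc was called in the untreated experiment alone (0.24 ± 0.04, edgeR adjusted p = 5.96e-05). Pmaip1 and Ccnd1 were higher in all 3 genotype comparisons, and a link of these genes to the Sall2 level was not tested.

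Of 12 pluripotency genes, 4 were above the filter in the untreated experiment and 2 were called (31.2% of all genes were), both higher: Tfcp2l1 (1.39 ± 0.19, edgeR adjusted p = 2.54e-05) and Klf4 (0.29 ± 0.05, edgeR adjusted p = 1.26e-04). In the IFNγ experiment 5 were above the filter and 1 was called in each genotype comparison, lower, a share near the 17.2 and 16.5% of all genes. This was Esrrb, an orphan nuclear receptor, named after its values were seen because it is below 1 CPM on average. It was at 1.50 ± 0.23 CPM in sgCtrL and 0.215 ± 0.15 CPM in Sin3Bsg1 without IFNγ, and at 0.719 ± 0.08 and 0.083 ± 0.04 CPM with IFNγ. Medians of the tested genes were 0.15, −0.70 and −0.51.

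Markers of macrophages and endothelium had means below 1 TPM in every group, and so did some of those of fibroblasts. Of 8 macrophage and microglia markers, chosen because Sall1 is also a microglial gene, 0 reached a mean of 1 TPM in any group. Their sum ran from 0.0911 to 1.39 TPM, and Adgre1 was at 0 in every group. Tmem119 was the highest, at 0.982 ± 0.11 TPM (SD, n = 3) in sgCtrL cells without IFNγ, from 16 to 26 counts. That is above Sall1 (0.715 TPM) and Sall3 (0.515 TPM) in Sin3Bsg1 cells without IFNγ. Like Sall1 and Sall3, Tmem119 was lower in untreated sgCtrL cells of the first experiment (0.152 CPM) than in sgCtrL cells without IFNγ of the second (1.01 CPM). Of 3 endothelial markers 0 reached 1 TPM, with sums from 0.0117 to 0.389 TPM and Cdh5 at 0 in every group. Of 6 fibroblast markers, Pdgfra, Pdgfrb and Col1a1 were above 1 TPM in every group. The other 3, Dcn, Lum and Col1a2, were below 1 TPM in every group, with at most 6, 3 and 18 counts in a library. The fibroblast sum was 37.3 to 37.4 TPM in sgCtrL and 11.6 to 12.7 TPM in Sin3Bsg1 cells of the untreated experiment, 89.8 to 93.9 and 85.9 to 91.0 TPM without IFNγ, and 59.2 to 60.7 and 55.2 to 61.4 TPM with IFNγ. The sum thus moved with Sall1 and Sall3 between genotypes in the untreated experiment and between the sgCtrL cells of the 2 experiments. Between those sgCtrL cells Col1a1 went the other way. In the IFNγ experiment the sums of the genotypes overlapped, but single markers differed in opposite directions. Without IFNγ Pdgfra was at 233 ± 3.92 CPM in sgCtrL and 194 ± 5.40 CPM in Sin3Bsg1 (SD, n = 3), while Col1a1 was at 11.7 ± 0.92 and 30.3 ± 0.57 CPM and Pdgfrb at 30.6 ± 0.19 and 35.0 ± 0.66 CPM. With IFNγ Pdgfra was at 165 ± 1.09 and 142 ± 4.35 CPM, Col1a1 at 6.40 ± 0.06 and 18.6 ± 1.79 CPM, and Pdgfrb at 20.1 ± 0.27 and 24.3 ± 1.71 CPM. The part of fibroblast, macrophage and ductal genes in the Sall results was not tested. In bulk RNA, fewer cells that express a gene and less RNA per cell cannot be told apart.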

How the data were processed

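The authors deposited estimated counts per gene, not normalized and not all whole, in a table for each experiment, with group means that were checked and left out. According to the methods of the study, reads were aligned with HISAT2 to mm9 with featureCounts applied to reads that mapped once, while the submitters' processing notes name fastp, HISAT2, StringTie, DESeq2 and mm39. Versions and strand setting are not given in the sources used here. Control columns carry a lacZ name and were taken as sgCtrL, as each table holds no other guide besides Sin3Bsg1. Counts were rounded, and 324 unnamed assembled loci (0.615 to 0.677% of counts) of the untreated table were left out. Of the remaining identifiers, 98.8 and 98.7% were in GENCODE M39, which gave positions on GRCm39. TPM were computed from the deposited lengths.

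Each table was fitted apart with edgeR 4.0.16 (TMM, filterByExpr, glmQLFit and glmQLFTest, two-sided; R 4.3.3), 1 mean per group, with Benjamini-Hochberg adjustment over the 14589 and 14913 genes tested and a threshold of 0.05. The SE is the size of a log2 fold change over the root of its F statistic. The biological coefficient of variation was 2.84 and 6.78%. Where groups are said not to overlap, CPM of all libraries were compared. A gene at 3 counts or fewer was taken as at the floor. The fit was tested on simulated data. A further short list and 1 motif are not reported here.

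The members and all gene lists were chosen with earlier results of these data known. Genes named are the Sall genes and Sin3b, up to 4 called genes of each list and genotype comparison with the largest change and a mean of at least 1 CPM, the 5 genes most like each member, and the nearest protein-coding gene on each side. Lists were the NuRD complex, nephron progenitor genes, reported Sall2 targets and partner, the pluripotency network, and markers of ductal epithelium, fibroblasts, macrophages and endothelium. Alternatives were DESeq2 1.42.0, its size factors in edgeR, no filter, at least 10 counts in every library, the replicate number as a block, only the libraries of a comparison, and leaving out each library.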

Additional observations from a re-analysis of the deposited data

How the results depend on the processing

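Under DESeq2 size factors, both other filters, the replicate block and fits on the libraries of a comparison alone, every tested Sall value kept its direction and its side of the threshold, and under DESeq2 all but Sall3 in the untreated experiment did (−1.45, no longer called; the cause was not tested). Leaving out single libraries, Sall1 and Sall3 kept their genotype calls in the IFNγ experiment. Ranges where a call or sign changed were −2.01 to −0.82 for Sall3 in the untreated experiment, −0.10 to 0.016 for Sall2 without IFNγ, −0.25 to −0.10 (Sall2) and −0.49 to −0.32 (Sall3) for IFNγ in sgCtrL, 0.24 to 0.48 (Sall1) and −0.32 to −0.21 (Sall2) for IFNγ in Sin3Bsg1, and −0.15 to 0.0032 (Sall2) and −0.31 to 0.051 (Sall3) for the interaction. In the untreated experiment such a fit leaves a group of 1 library, assumed to vary like the other. Genes called numbered 2567 without and 2463 with IFNγ, and 3995 (of 14227 tested) and 1500 on the libraries of those comparisons alone. Without IFNγ, 3529 were called when replicate 1 of sgCtrL with IFNγ, a library outside that comparison, was left out. The share of all genes called thus depends on the libraries fitted, and the cause was not tested. For the interaction 17 genes were called, 32 with DESeq2, 115 without a filter, where more genes were tested, and 1 to 33 with a library left out. Deviations of libraries with the same replicate number correlated by 0.0129 in the untreated experiment and by −0.0286 to 0.119 in the other, so the numbers were not taken to pair samples. With the replicate block 4671, 2511 and 2389 genes were called in the genotype comparisons and Sall1 was at −3.00, −3.01 and −2.80. The block changed the NuRD count from 2 to 1 without IFNγ and from 10 to 11 in the untreated experiment. Sall4 and the untreated levels of Sall3, from 10 to 51 counts, are limited by low counts. The untreated libraries held more counts in total than those of the IFNγ experiment.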

Other observations

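Among the list genes, several moved with IFNγ in both genotypes, where 30.2% (sgCtrL) and 28.4% (Sin3Bsg1) of all genes were called. Eya1 rose by log2 fold changes of 0.42 ± 0.07 in sgCtrL (edgeR adjusted p = 3.67e-04) and 0.51 ± 0.08 in Sin3Bsg1 (edgeR adjusted p = 1.38e-04). Kif26b had −0.90 ± 0.13 (edgeR adjusted p = 6.71e-05) and −0.71 ± 0.14 (edgeR adjusted p = 0.00123). Ccnd1 had 0.44 ± 0.04 (edgeR adjusted p = 8.08e-07) and 0.39 ± 0.04 (edgeR adjusted p = 2.81e-06), and Klf4 0.45 ± 0.06 (edgeR adjusted p = 6.19e-05) and 0.38 ± 0.06 (edgeR adjusted p = 3.06e-04). Tfcp2l1 was lower with IFNγ in sgCtrL, from 1.04 to 0.279 CPM, and in Sin3Bsg1, from 1.41 to 0.538 CPM (edgeR adjusted p = 0.00209 and 0.00686). The remodeler gene Chd3 was the NuRD gene among those named that was called in both, at −0.47 ± 0.06 and −0.34 ± 0.06 (edgeR adjusted p = 3.10e-05 and 5.53e-04).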
